A study of Homo sapiens with 6 samples.

Results

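Squamous lineage transcription factors are the DNA-binding proteins that set and hold the identity of stratified epithelium. In the esophagus, p63 and SOX2 keep the basal progenitor layer, KLF5 is known from the proliferating layers, and KLF4, PAX9 and OVOL1 are tied to the step into differentiating cells. FOXE1, SOX15 and AP-2alpha, the product of TFAP2A, are further regulators of foregut or surface epithelium. The 9 genes described here, TP63, SOX2, SOX15, PAX9, FOXE1, KLF4, KLF5, TFAP2A and OVOL1, were taken by symbol from the 58884 rows of the expression matrix, and each symbol stood on a single row. All 9 had a mean of at least 10 normalized counts over the 6 libraries, so all were among the 16701 genes tested.

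Gene expression was measured by RNA sequencing in KYSE450, a line of human esophageal squamous cell carcinoma (ESCC) with wild-type NRF2, and in KEAP1null-KYSE450, made from it by disrupting KEAP1 with CRISPR-Cas9. KEAP1 is the adaptor that sends the transcription factor NRF2, encoded by NFE2L2, for degradation. There were 3 libraries of each line, both grown untreated in the same medium. KEAP1null-KYSE450 is a single monoclonal line, so the loss of KEAP1 and any other feature of that clone cannot be told apart. Nothing in the labels says that libraries came from separate cultures, and p-values then measure only the spread between these libraries, which may be technical. In bulk samples, fewer cells of a type and less RNA per cell cannot be told apart.

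Summed normalized counts were between 54829313 and 57380170 per library. Pearson's r between libraries of the same line was 0.98 to 0.99, against 0.92 to 0.94 across lines. KEAP1 mRNA did not separate the lines, with 5377 ± 334 normalized counts in KYSE450 and 5320 ± 415 in KEAP1null-KYSE450 (SD, n = 3), and counts per gene do not show an edit in a transcript. NFE2L2 went from 11009.9 ± 341 to 7948 ± 144 (SD, n = 3), a log2 fold change of -0.47 (adjusted p = 6.3e-04 from limma). All 8 squamous markers were detected in both lines, with summed levels of 281705 to 392703 in KYSE450 and 558500 to 700645 in KEAP1null-KYSE450. KRT5 carried most of that sum and was higher past both thresholds, while KRT6A, KRT14 and PKP1 were lower and the median of the 8 log2 fold changes was -0.22. Of the 10 columnar markers, 6 had a mean under 10 and MUC2 and TFF1 were at 0 in every library. The sums of the 10 were 150174 to 172029 in KYSE450 and 257973 to 297600 in KEAP1null-KYSE450, with KRT8 the highest in both. Of the 4 tested, 2 were higher and 0 lower by adjusted p, against 24.3% and 25.5% of all tested genes. Their median log2 fold change was 0.76, and 0 passed both thresholds. All 6 leukocyte markers and 7 of 8 fibroblast markers had a mean under 10, and the fibroblast sums of 624 to 853 and 353 to 437 were mostly COL1A1, which was lower by adjusted p. Of 4 endothelial markers PECAM1 was at 0, VWF did not pass the test, and CDH5 had a mean of 19.9 in KYSE450 and was at least 6.52-fold lower in KEAP1null-KYSE450. The part of these markers in the results was not tested.

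To show where the factors begin in the genome, promoter sequence was taken from RefSeq, and 7 of the 9 matched an entry of its promoter table on GRCh38.p14 (SOX15 and OVOL1 did not). Shown are the 250 bases before the listed start of the 3 matched genes with the largest decrease and of PAX9, the single gene that rose, in the direction of the gene. Capitals mark matches, on either strand, to 5 motifs: the antioxidant response element core TGACNNNGC, bound by NRF2 with small MAF proteins, the KLF box CACCC, the AP-2 site GCCNNNGGC, the SOX site ACAAAG and the TATA box TATAAA. The windows are chr9:97852976-97853225 (plus strand) for FOXE1, chr9:107489770-107490019 (minus strand) for KLF4, chr3:181711675-181711924 (plus strand) for SOX2 and chr14:36657318-36657567 (plus strand) for PAX9.
FOXE1: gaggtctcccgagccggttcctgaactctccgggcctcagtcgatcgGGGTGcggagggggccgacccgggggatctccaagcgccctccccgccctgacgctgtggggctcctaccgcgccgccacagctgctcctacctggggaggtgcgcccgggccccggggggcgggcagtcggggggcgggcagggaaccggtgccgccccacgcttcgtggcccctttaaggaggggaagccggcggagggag
KLF4: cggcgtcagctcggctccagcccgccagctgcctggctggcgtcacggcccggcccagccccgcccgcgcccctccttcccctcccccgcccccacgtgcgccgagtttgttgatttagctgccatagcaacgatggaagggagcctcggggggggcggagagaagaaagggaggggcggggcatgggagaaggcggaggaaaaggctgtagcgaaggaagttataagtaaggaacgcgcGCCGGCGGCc
SOX2: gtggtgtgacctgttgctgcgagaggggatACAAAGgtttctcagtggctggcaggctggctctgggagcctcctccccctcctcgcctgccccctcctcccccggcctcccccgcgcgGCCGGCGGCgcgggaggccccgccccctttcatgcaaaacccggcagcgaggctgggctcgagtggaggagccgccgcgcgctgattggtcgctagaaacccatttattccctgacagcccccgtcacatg
PAX9: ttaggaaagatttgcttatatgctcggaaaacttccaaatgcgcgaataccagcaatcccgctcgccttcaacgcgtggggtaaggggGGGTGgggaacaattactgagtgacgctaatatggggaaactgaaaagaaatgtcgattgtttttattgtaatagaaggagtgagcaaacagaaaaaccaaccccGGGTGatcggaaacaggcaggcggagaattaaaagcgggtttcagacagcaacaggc

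FOXE1 held 1 KLF box, KLF4 held 1 AP-2 site, SOX2 held 1 AP-2 site and 1 SOX site, and PAX9 held 2 KLF boxes. Of the promoters not shown, KLF5 and TFAP2A each held 1 KLF box and 1 TATA box, and TP63 held none of the 5 motifs. The TP63 window ends directly before the annotated span of the gene, so starts inside that span were not scanned. The antioxidant response element core was in none of the 7 windows. Among all 27305 promoters, the shares with a match were 11.0% for the antioxidant response element core, 53.7% for the KLF box, 19.7% for the AP-2 site, 13.7% for the SOX site and 11.1% for the TATA box. GC content ran from 40.8% in KLF5 to 75.6% in FOXE1, with a median of 58% over all promoters. These matches describe letters in short windows and not binding. In gencode v44 the FOXE1 window overlaps an exon of the antisense noncoding gene PTCSC2, the SOX2 window lies within SOX2-OT, and the KLF4 window lies outside annotated exons but inside the span of KLF4.

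At an adjusted p under 0.05 (limma with Benjamini-Hochberg adjustment over all genes tested), 7 of the 9 factors fell in KEAP1null-KYSE450 and PAX9 rose. KLF5 did not pass. By this measure 49.8% of all tested genes passed, 25.5% lower and 24.3% higher. When the study's fold requirement was added (a log2 fold change of 1 or more in either direction), 3 of the 9 were lower, SOX15, FOXE1 and KLF4, and 0 were higher, against 5.98% of tested genes lower and 12.2% higher (18.2% in both directions). The 3 libraries of each line did not overlap for the same 7 lower genes and for PAX9, where 57.8% of all tested genes had no overlap, 29.3% lower and 28.4% higher. The median log2 fold change of the 9 was -0.94, and that of all tested genes was 0.00. Among all calls past both thresholds, 67.2% were higher in KEAP1null-KYSE450, and 51.8% after quantile normalization. In a test against a fold change of 2 the same 3 were called, and TP63, SOX2, PAX9, TFAP2A and OVOL1 were not. None of the 7 decreases turned to an increase under any of 16 other settings.

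**Figure D1:**
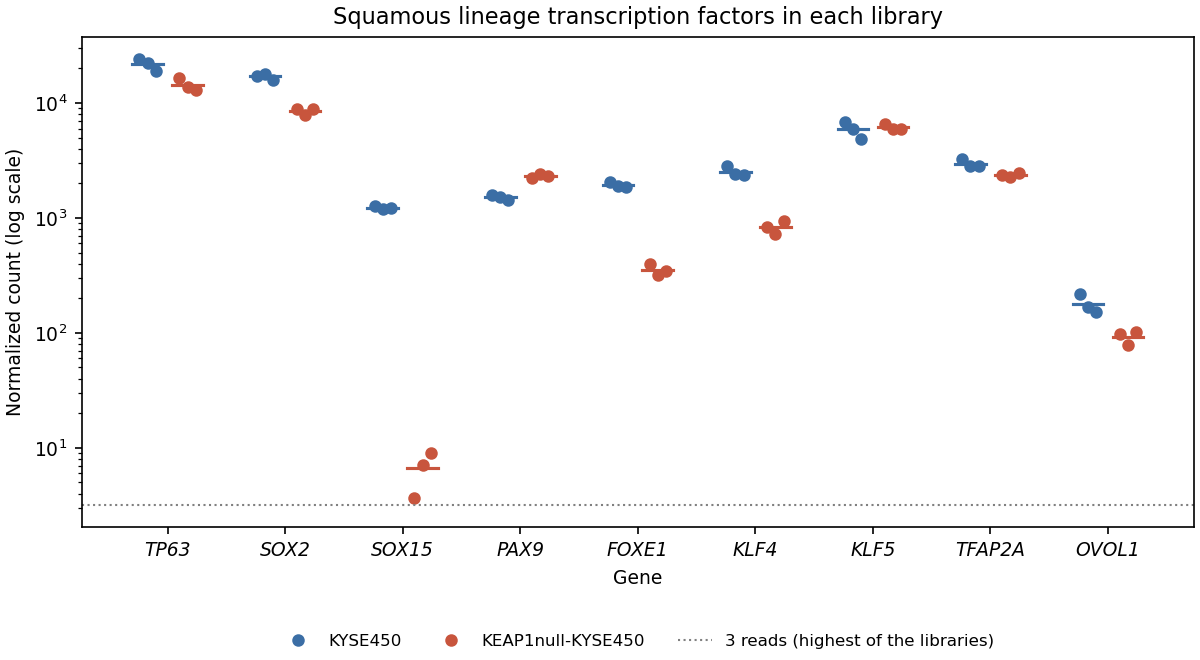
Normalized counts (log axis) of the 9 factors in each of the 3 KYSE450 and 3 KEAP1null-KYSE450 libraries, with 1 point per library and a line at the mean of each cell line and a dotted line at the highest value of 3 reads, 3.21. The libraries of the lines overlap only for KLF5, and SOX15 drops from a mean of 1229 to 6.64.

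TP63 encodes p63, the factor on which stratified epithelia depend, and lies on chromosome 3 from 189631389 to 189897276 on the plus strand (hg38 coordinates throughout, from gencode v44, 14 exons in the main transcript). In KYSE450 its libraries held 24150, 22271 and 18888 normalized counts, against 16389, 13653 and 13086 in KEAP1null-KYSE450. Every KYSE450 library was above every KEAP1null-KYSE450 library. The log2 fold change was -0.60 ± 0.12 (SE, limma adjusted p = 0.0012), with means of 21769 ± 2667 and 14376 ± 1766 (SD, n = 3). The call was also lost in edgeR's quasi-likelihood test on the recovered reads of 4 libraries (adjusted p = 0.059, log2 fold change -0.37 to -0.70 over all other settings). Counts per gene do not separate the TAp63 isoforms from the deltaNp63 isoforms, which prevail in squamous cells.

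SOX2, an HMG-box factor of the foregut and of basal progenitors, is a single-exon gene on chromosome 3 (181711925 to 181714436, plus strand), inside the long noncoding gene SOX2-OT on the same strand. It was measured at 17294, 18028 and 15944 normalized counts in KYSE450 and at 8948, 7934 and 8813 in KEAP1null-KYSE450. The lines were thus well apart, with little spread within either. SOX2 fell by a log2 fold change of -0.997 ± 0.09 (SE, limma adjusted p = 3.5e-06), from 17089 ± 1057 to 8565 ± 551 (SD, n = 3), just short of the threshold of 1. Leaving out 1 library placed it past that threshold in 3 of 6 fits. SOX2-OT had a log2 fold change of -0.09 (adjusted p = 0.68 from limma), with 321 and 304 normalized counts. As both genes lie on the same strand, strand cannot separate their reads. Unless the counting used exons unique to each gene, which is not stated in the sources used here, reads shared by these genes could not be assigned to either.

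SOX15, a SOX factor of group G found in stratified epithelia, showed by far the largest difference of the 9. It is a small gene of 2 exons on chromosome 17 (7588178 to 7590094, minus strand). The KYSE450 libraries held 1276, 1195 and 1216 normalized counts, and the KEAP1null-KYSE450 libraries 3.69, 7.14 and 9.08. In the libraries whose reads could be recovered these were 1193 and 1304 reads in KYSE450 and 4 and 7 reads in KEAP1null-KYSE450, where 3 reads are worth 2.77 to 3.21 normalized counts per library. SOX15 therefore stood at a moderate level with little spread in KYSE450 and close to the counting floor in KEAP1null-KYSE450. The mean fell 185-fold, from 1229 ± 42.1 to 6.64 ± 2.73 (SD, n = 3), with a log2 fold change of -7.40 ± 0.28 on the log2(count + 1) scale (SE, limma adjusted p = 6.8e-10). Of all 16701 tested genes, 9 had a lower log2 fold change. MPDU1, which overlaps SOX15 on the opposite strand, had 5672 ± 235 and 4331 ± 203 normalized counts (SD, n = 3) and fell by 0.39 on the log2 scale (adjusted p = 0.0031 from limma). Without strand, reads from the overlap of these genes cannot be told apart.

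PAX9 and FOXE1 are foregut factors and moved in opposite directions. PAX9, a paired-box protein of pharyngeal and esophageal epithelium, lies on chromosome 14 (36657568 to 36679362, plus strand, 4 exons). It had 1594, 1507 and 1436 normalized counts in KYSE450 and 2205, 2419 and 2301 in KEAP1null-KYSE450. Each KEAP1null-KYSE450 library exceeded each KYSE450 library, and the mean rose 1.53-fold, from 1512 ± 79.0 to 2309 ± 107 (SD, n = 3). The log2 fold change was 0.61 ± 0.10 (SE, limma adjusted p = 2.5e-04) and 0.57 to 0.71 under the other settings. SLC25A21, which overlaps PAX9 on the opposite strand, went from 180 ± 41.7 to 354 ± 22.2 normalized counts (SD, n = 3), a log2 fold change of 0.996 (adjusted p = 7.7e-04 from limma).

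FOXE1, a forkhead factor of thyroid and foregut epithelium, is a single-exon gene on chromosome 9 (97853226 to 97856717, plus strand). Its libraries gave 2038, 1915 and 1868 normalized counts in KYSE450 against 395, 319 and 346 in KEAP1null-KYSE450. The separation was wide in every pair of libraries. FOXE1 fell 5.49-fold, from 1940 ± 88.2 to 353 ± 38.5 (SD, n = 3), a log2 fold change of -2.46 ± 0.12 (SE, limma adjusted p = 7.4e-09). This value lay between -2.54 and -2.39 under the other settings.

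KLF4 and KLF5 are zinc-finger factors of the same family, with KLF4 known from suprabasal differentiating cells and KLF5 from proliferating ones. KLF4 lies on chromosome 9 (107484852 to 107490482, minus strand, 5 exons). Its normalized counts were 2811, 2419 and 2363 in KYSE450 and 833, 722 and 948 in KEAP1null-KYSE450. All KEAP1null-KYSE450 libraries were far below all KYSE450 libraries, and the mean fell 3.03-fold, from 2531 ± 244 to 834 ± 113 (SD, n = 3). The log2 fold change of KLF4 was -1.60 ± 0.12 (SE, limma adjusted p = 5.4e-07).

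KLF5, on chromosome 13 (73054976 to 73077541, plus strand, 4 exons), gave 6848, 5915 and 4912 normalized counts in KYSE450 and 6577, 5977 and 5898 in KEAP1null-KYSE450. The KEAP1null-KYSE450 libraries all lay within the range of the KYSE450 libraries. The means were 5892 ± 968 and 6151 ± 372 (SD, n = 3), with a log2 fold change of 0.07 ± 0.12 (SE, limma adjusted p = 0.63) and a 95% interval from -0.18 to 0.33. A change of KLF5 was not detectable, and one of the size seen in KLF4 lay outside that interval.

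TFAP2A encodes AP-2alpha, a regulator of surface ectoderm and keratinocyte genes, on chromosome 6 (10393186 to 10419659, minus strand, 7 exons). Counts of 3235, 2809 and 2860 in KYSE450 stood against 2352, 2291 and 2452 in KEAP1null-KYSE450. The groups did not overlap, but the log2 fold change was the smallest in size of the 7 decreases. TFAP2A fell from 2968 ± 233 to 2365 ± 81.2 (SD, n = 3), a log2 fold change of -0.33 ± 0.10 (SE, limma adjusted p = 0.014). The call was lost without KEAP1null-KYSE450 library 2, after quantile normalization, in edgeR, in DESeq2 and in a test against a fold change of 2, with adjusted p up to 0.094 in the first 4 of these. The antisense genes TFAP2A-AS1 and TFAP2A-AS2, which overlap it, did not pass the test (log2 fold changes of 0.04 and -0.26, adjusted p = 0.94 and 0.42 from limma).

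OVOL1, a zinc-finger repressor that acts as epithelial cells leave the progenitor state, was the least expressed of the 9 in KYSE450 and lies on chromosome 11 (65787063 to 65797214, plus strand, 4 exons). It had 219, 167 and 151 normalized counts in KYSE450 and 97.8, 78.5 and 101 in KEAP1null-KYSE450. The lowest KYSE450 library was still above the highest KEAP1null-KYSE450 library. OVOL1 fell from 179 ± 35.7 to 92.4 ± 12.1 (SD, n = 3), a log2 fold change of -0.94 ± 0.22 (SE, limma adjusted p = 0.0034) with the largest error of any of the 9 apart from SOX15. It passed the fold threshold in 5 of 16 other settings, among them edgeR and DESeq2.

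**Figure D2:**
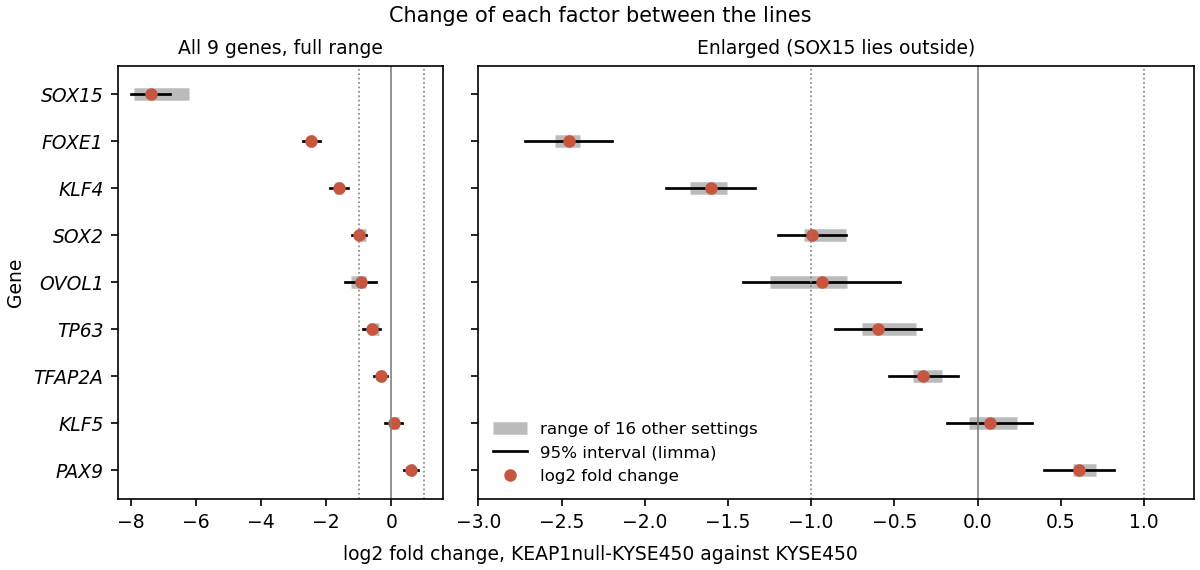
Log2 fold change of each factor, KEAP1null-KYSE450 against KYSE450, with its 95% interval from limma (black line) and the range over 16 other settings (grey bar), over the full range at left and enlarged at right. Dotted lines mark -1 and 1. SOX15 (-7.40), FOXE1 (-2.46) and KLF4 (-1.60) lie beyond the line at -1 with their whole interval, SOX2 and OVOL1 straddle it, and KLF5 lies across 0.

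Levels between genes were compared as normalized counts per kilobase of exon. In KYSE450 the order was SOX2 (6803 per kilobase), TP63 (2911), KLF5 (1601), SOX15 (839), KLF4 (691), FOXE1 (556), TFAP2A (361), PAX9 (266) and OVOL1 (47.1), and no neighbours in that order had overlapping libraries. In KEAP1null-KYSE450 the leading 3 were again SOX2 (3410), TP63 (1922) and KLF5 (1672), of which TP63 and KLF5 overlapped, followed by PAX9 (406), TFAP2A (288), KLF4 (228), FOXE1 (101), OVOL1 (24.3) and SOX15 (4.53). PAX9 moved up past TFAP2A, KLF4 and FOXE1, and SOX15 dropped to the last place. Against all tested genes, the level of SOX2 exceeded 98.2% of genes in KYSE450 and 96.4% in KEAP1null-KYSE450, while that of SOX15 went from above 82.5% of genes to above 4.94%. For FOXE1 the share of genes below it went from 75.3% to 42.3%, for KLF4 from 79.1% to 58.4% and for PAX9 from 60.7% to 70.8%.

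**Figure D3:**
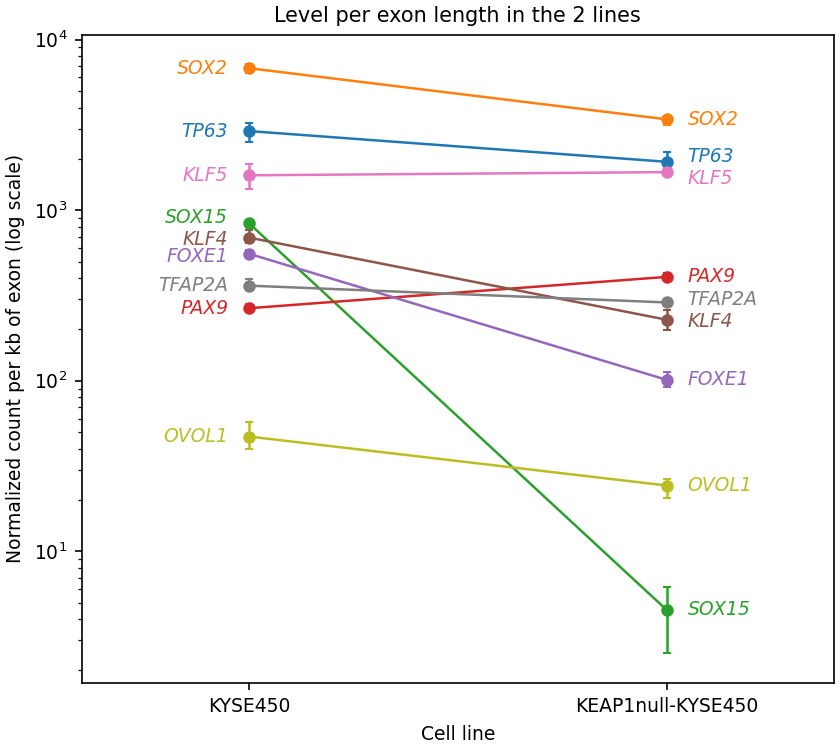
Mean normalized count per kilobase of exon (log axis) of the 9 factors in each line, joined by lines, with bars from the lowest to the highest of 3 libraries. SOX2, TP63 and KLF5 stay on top in both lines, while SOX15 goes from 839 to 4.53 and PAX9 passes TFAP2A, KLF4 and FOXE1.

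Ratios of normalized counts inside each library do not depend on the scaling between libraries. KLF4 over KLF5 was 0.410, 0.409 and 0.481 in KYSE450 and 0.127, 0.121 and 0.161 in KEAP1null-KYSE450, a difference of -1.68 in the log2 ratio. PAX9 over TP63 was 0.0660, 0.0677 and 0.0760 in KYSE450 and 0.135, 0.177 and 0.176 in KEAP1null-KYSE450, a difference of 1.21. SOX2 over TP63 was 0.716, 0.809 and 0.844 against 0.546, 0.581 and 0.674, a difference of -0.40, so SOX2 fell by more than TP63 in every pair of libraries. For SOX15 over SOX2 the difference was -6.40. The differences were taken with 1 added to each count, so they depend slightly on the scaling where counts are low, as for SOX15. None of the 4 ratios overlapped between the lines, and each gave an exact two-sided permutation p of 0.10 (0.10 after Benjamini-Hochberg adjustment over 4 pairs), the smallest that 3 against 3 libraries allow, so this design cannot reach 0.05.

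Within the SOX, KLF, PAX, TFAP2 and OVOL families, the factors held different shares of the summed level per kilobase. SOX2 made up 63.8% of the SOX family in KYSE450 and 69.1% in KEAP1null-KYSE450, while the family sum went from 10662 to 4933. SOX15 made up 7.87% and then 0.0918%. Second to SOX2 stood SOX4 (920 per kilobase) in KYSE450 and SOX12 (446) in KEAP1null-KYSE450. KLF5 led the KLF family in both lines with 29.5% and 33.2%, and the share of KLF4 went from 12.7% to 4.53%. The KLF relatives with the highest level were KLF16 in KYSE450 (939 per kilobase) and KLF10 in KEAP1null-KYSE450 (1077). PAX9 was nearly the whole PAX family, with 97.5% and 92.3%, followed by PAX7 at 5.25 and 32.4 per kilobase. TFAP2A led its family with 68.5% and 66.4%, ahead of TFAP2C (162 and 140 per kilobase), and OVOL1 stood below OVOL2 with 28.3% and 23.5% of the OVOL sum.

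The 49 other members of these families were looked at next, of which 27 were expressed well enough to test. Past both thresholds, 3 were higher and 8 lower in KEAP1null-KYSE450, where all tested genes gave 12.2% higher and 5.98% lower. By adjusted p alone 6 were higher and 15 lower, against 24.3% and 25.5% of all tested genes, shares that apply to each list that follows. Their median log2 fold change was -0.53, or -0.15 with no filter on low values. SOX6, a SOX factor of group D, rose from 128 ± 14.0 to 968 ± 37.8 normalized counts (SD, n = 3), a log2 fold change of 2.92. PAX7, a paired-box factor of muscle and neural crest, rose by 2.61 on the log2 scale and KLF10, a TGF-beta-inducible repressor, by 1.15. Among the decreases, SOX1, a neural factor of the same group as SOX2, went from 1665 ± 160 to 200.5 ± 20.8 (SD, n = 3), a log2 fold change of -3.05, and KLF15 and SOX4 had log2 fold changes of -1.96 and -1.38. SOX2, SOX1, SOX4 and SOX15 thus fell and SOX6 rose. SOX5, SOX9, SOX13 and SOX21 were also lower past both thresholds, and SOX7 and SOX8 were higher by adjusted p alone.

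**Figure D4:**
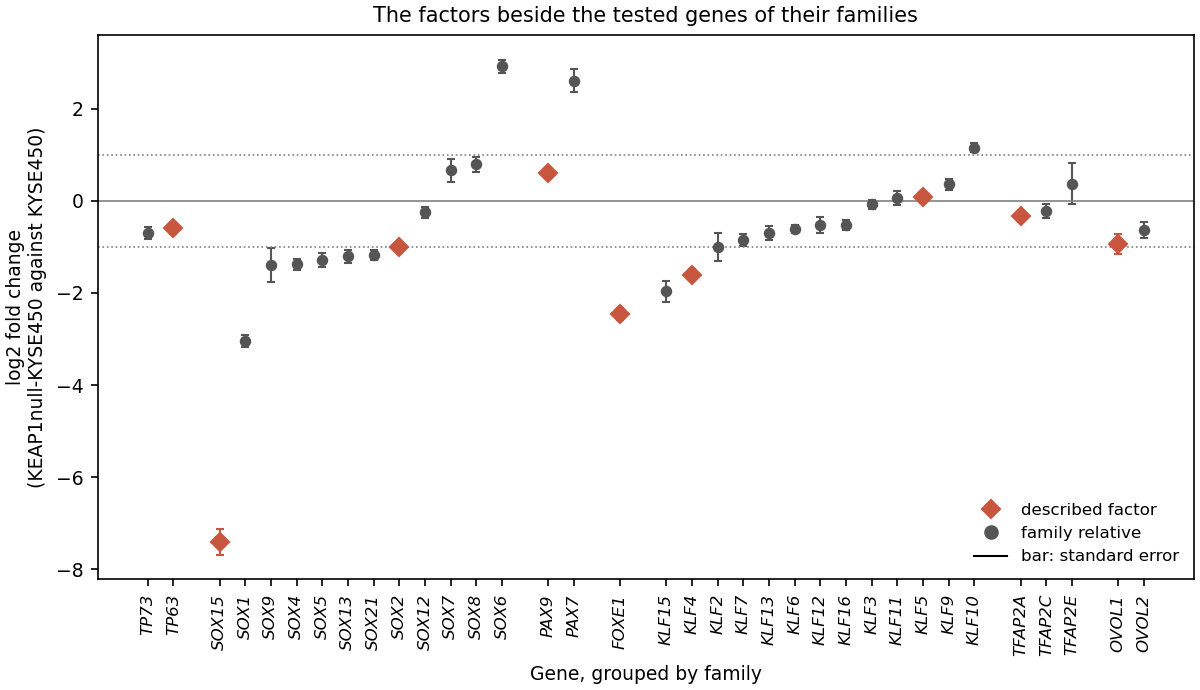
Log2 fold change, KEAP1null-KYSE450 against KYSE450, of the 9 factors (diamonds) and 26 of their 27 tested relatives (circles), grouped by family and ordered by value within each, with bars of 1 standard error and dotted lines at -1 and 1. SOX15 (-7.40) lies far below the other SOX genes, and SOX6 (2.92) and PAX7 (2.61) lie highest. In the KLF family, KLF4 (-1.60) lies below KLF5 (0.07) and above KLF15 (-1.96).

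Other regulators of squamous cells were mixed. Of 32 listed, 28 were tested, 3 were higher and 6 lower past both thresholds (5 and 12 by adjusted p alone). Past both thresholds the share higher was close to the 12.2% of all tested genes. The shares lower were above those of all tested genes, 5.98% past both thresholds and 25.5% by adjusted p. The median log2 fold change of -0.05 was not steady: it was -0.21 without KYSE450 library 1, -0.11 without KYSE450 library 2, -0.23 without KYSE450 library 3, -0.10 without KEAP1null-KYSE450 library 2, -0.13 without KEAP1null-KYSE450 library 3, -0.22 after quantile normalization and 0.07 with no filter. BARX2, a homeobox factor of epithelium, had 495, 495 and 586 normalized counts in KYSE450 and 1.85, 12.2 and 13.1 in KEAP1null-KYSE450. Its log2 fold change of -6.02 was the lowest among the listed regulators, and in the first KEAP1null-KYSE450 library it was below the value of 3 reads. BNC2 and CASZ1, both zinc-finger proteins, had log2 fold changes of -3.73 and -1.84. SATB1, a chromatin organizer, rose by 1.97. BNC1, the basonuclin of basal keratinocytes, rose by 1.03, a call past both thresholds that was lost in 3 other settings.

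Genes of the basal layer and targets of p63 were all measured. Of the 26, 2 were higher and 9 lower past both thresholds (6 and 12 by adjusted p alone). The share higher by adjusted p was close to the 24.3% of all tested genes. The shares lower were above those of all tested genes, 5.98% past both thresholds and 25.5% by adjusted p. The median log2 fold change was -0.40, with -0.26 when KYSE450 library 1 was left out and -0.23 after quantile normalization. KRT14, a basal keratin, went from 2401 ± 283 to 34.5 ± 6.33 normalized counts (SD, n = 3), a log2 fold change of -6.09. COL17A1, a hemidesmosome collagen, had a log2 fold change of -3.08. KRT5, the usual partner of KRT14, moved the other way, 2.73-fold higher with a log2 fold change of 1.46 (quantile normalization lowered it to 0.87). KRT15 rose by 1.72. The basal keratins therefore split, with KRT14 lower and KRT5 and KRT15 higher.

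Squamous differentiation genes also went both ways. Of 26, 18 were tested, 3 were higher and 7 lower past both thresholds (4 and 8 by adjusted p alone). The share higher by adjusted p was again close to the 24.3% of all tested genes. The shares lower were above those of all tested genes, 5.98% past both thresholds and 25.5% by adjusted p. The median log2 fold change was -0.35, also with the 4 SPRR genes at their lower bounds, but it moved with single libraries and settings. It was -0.22 without KYSE450 library 1, -0.72 without KYSE450 library 2, -0.23 without KEAP1null-KYSE450 library 2, -0.88 after quantile normalization, -0.77 in edgeR, -0.81 in DESeq2 and -0.11 with a mean of at least 100, where 8 genes were tested. KRT4, the keratin of suprabasal esophageal cells, rose from 634 ± 86.3 to 22749.6 ± 1555 normalized counts (SD, n = 3), a log2 fold change of 5.17. TMPRSS11E, an epithelial serine protease, rose by 3.16 and ANXA1, an annexin abundant in squamous epithelium, by 1.39. SPRR1B, a precursor of the cornified envelope, was at 168, 118 and 160 normalized counts in KYSE450 and at 0 in all 3 KEAP1null-KYSE450 libraries, at least 48.7-fold lower when set against 3 reads in a library. SCEL, another envelope protein, and EMP1, a membrane protein of epithelium, had log2 fold changes of -2.38 and -1.83.

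Regulators of other lineages were mostly low, and 15 of 26 did not pass the filter. Of the 11 tested, 2 were higher and 3 lower past both thresholds (5 and 4 by adjusted p alone). All tested genes gave 12.2% higher and 5.98% lower past both thresholds, and 24.3% and 25.5% by adjusted p. The median log2 fold change of 0.05 had no steady sign or size, with -0.03 after quantile normalization, -0.13 with no filter, -0.0058 without KYSE450 library 1, 0.11 without KYSE450 library 2, 0.13 without KEAP1null-KYSE450 library 1, 0.24 without KEAP1null-KYSE450 library 2 and 0.74 with a mean of at least 100. ZEB1, a repressor of epithelial genes, rose from 20.3, 7.08 and 13.1 normalized counts in KYSE450 to 423, 455 and 388 in KEAP1null-KYSE450, a log2 fold change of 4.97. NKX2-1, the thyroid and lung factor, rose by 1.25. TWIST2 and FOXA2 had log2 fold changes of -1.89 and -1.66. The genes named as the largest changes in these 5 lists all had an adjusted p under 0.05 in limma, and none changed sign under the other settings.

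To see whether the genes around each factor moved with it, the 20 nearest genes on each side with a mean of at least 100 were taken. The windows differed widely in length, from 7235029 to 8224043 on chromosome 17 for SOX15 and from 51354077 to 94408020 on chromosome 13 for KLF5. Those of FOXE1 and KLF4 on chromosome 9 overlap and share the genes from ALG2 to RNF20. SOX15, FOXE1 and KLF4 had the lowest log2 fold change of their neighbourhoods, whose medians were -0.12, 0.07 and -0.01, so no gene among the 40 around each had a lower value. OVOL1 was second lowest with a median of -0.07 around it, and SOX2 was at rank 4 from the lowest with a median of -0.27. TP63 ranked 7 from the lowest with a median of 0.08, and KLF5 was at rank 26 with -0.05. PAX9 ranked 35 with a median of 0.16. Around TFAP2A, at rank 28, the 40 neighbours had a median of -0.57, lower than its own change. By adjusted p, 26 of the 40 around TFAP2A and 20 of the 40 around SOX2 were lower, against 25.5% of all tested genes. That share is of genes averaging at least 10, not 100, so the sets are unlike. The median log2 fold change was -0.08 over all genes averaging at least 100 and 0.00 over all tested genes.

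**Figure D5:**
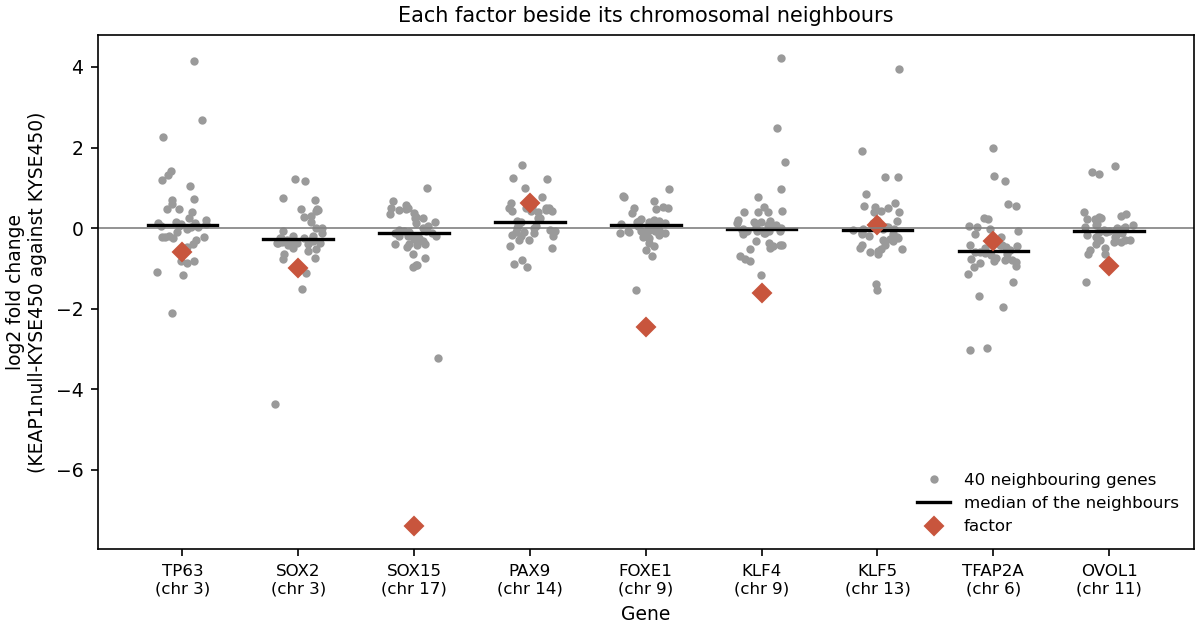
Log2 fold change of each factor (diamond) and of the 40 expressed genes around it (grey points), with a bar at the median of those genes. SOX15, FOXE1 and KLF4 lie below all their neighbours, and TFAP2A lies within a neighbourhood whose median is -0.57.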

How the data were processed

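RNA sequencing of KYSE450 (3 libraries) and KEAP1null-KYSE450 (3 libraries) was analysed. The authors aligned reads with STAR and counted them with featureCounts (versions 2.6.90c and 1.5.1 in the submitters' processing notes). The deposited values are normalized counts per gene, a signal in which each library was scaled by the authors. The methods name hg38 and a RefSeq annotation, while the rows carry Ensembl identifiers. Columns name the line but no replicate number. In 4 libraries the values gave whole reads (53027359 to 61543442 per library); in the other 2 the value of 1 read was too close to 1. A floor of 3 reads covers counting error only.

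The difference was tested two-sided in R 4.3.3 with limma 3.58.1 (lmFit, then eBayes with a mean-variance trend). Normalized counts were put on a log2 scale with 1 added as the pseudocount, and genes averaging under 10 were left out. The test used Benjamini-Hochberg adjustment and thresholds of 0.05 and an absolute log2 fold change of 1. Positions and exon lengths came from gencode v44. The 9 genes and the 5 lists were chosen with earlier results of these data known. In each list the 3 largest changes in each direction past both thresholds were named, provided that the higher line averaged 100 or more, with the most expressed relative of each family and the overlapping or nearest genes; 3 genes that this rule names are not reported here. The scripts were tested on simulated data. Alternatives were other pseudocounts, filters, scalings and limma settings, each library left out, and edgeR (version 4.0.16) and DESeq2 (version 1.42.0) on the recovered reads. Columns of other samples or of the authors' comparisons were not used.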

Additional observations from a re-analysis of the deposited data

How the results depend on the processing

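FOXE1, KLF4 and SOX15 stayed past both thresholds, in the same direction, in each of 16 other settings. The count of factors past both thresholds was 3 to 5 with 1 library left out. It was 5 without KYSE450 library 3 and 5 without KEAP1null-KYSE450 library 3, where OVOL1 and SOX2 were added. Without a fold cutoff it was 8. edgeR and DESeq2 on 4 libraries each called 4, with OVOL1 added. The log2 fold change of KLF5 lay between -0.051 and 0.19 with 1 library left out, changing sign without KYSE450 library 3. KLF5 was not called in any setting. Over all genes, 3044 passed both thresholds, 2645 to 3064 with 1 library left out, 1558 with a mean of at least 100, where fewer genes were tested, 1021 in a test against a fold change of 2, 8311 without a fold cutoff, 2712 in edgeR and 2514 in DESeq2. Among the genes of the 5 lists, 46 passed, 43 to 47 with 1 library left out, 26 in the test against a fold change of 2 and 77 without a fold cutoff. No paired analysis was possible because the columns carry no replicate numbers. Depth limits SOX15 in KEAP1null-KYSE450, where 4 and 7 reads stand behind the recovered values.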

Other observations

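The genes next to TP63, PAX9 and KLF5 are given here as values. The nearest tested gene before TP63, TPRG1, went from 1512 ± 117 to 348 ± 19.7 normalized counts (SD, n = 3), a log2 fold change of -2.11 (adjusted p = 2.8e-08 from limma), and lies 306085 bases away. P3H2, a collagen prolyl hydroxylase gene 59452 bases after TP63, had a log2 fold change of -1.08 (adjusted p = 5.2e-04 from limma). Both flanking genes thus had a larger decrease than TP63 itself at -0.60. The 40 genes around TP63 had a median of 0.08, with 13 higher and 10 lower by adjusted p. Among all tested genes 24.3% were higher and 25.5% lower, so the share lower around TP63 was close to that of all tested genes. The neighbours averaged at least 100 and all tested genes at least 10, so these shares come from unlike sets.

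On chromosome 14, where PAX9 had a log2 fold change of 0.61, the overlapping SLC25A21 had 0.996. The nearest tested gene before PAX9, the noncoding AL132857.1 at 1405 bases, was low, averaging 5.41 normalized counts in KYSE450 and 21.9 in KEAP1null-KYSE450, and differed by 2.33 on the log2 scale (adjusted p = 0.039 from limma). SLC25A21-AS1, the nearest after it, had a log2 fold change of 0.41 (adjusted p = 0.12 from limma). NKX2-8 (0.43) and NKX2-1 (1.25) lie further before PAX9, and NKX2-1 is named here after its value was seen. Among the 40 genes around PAX9, 14 were higher and 5 lower by adjusted p, against 24.3% and 25.5% of all tested genes. The same limit on unlike sets applies here. Next to KLF5, PIBF1, a centrosome gene 38515 bases before it, rose by 0.63 (adjusted p = 3.3e-04 from limma), with KLF5 itself at 0.07.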
